A study of Homo sapiens with 12 samples.

Results

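The EGF receptor family and its ligands were followed in 2 human carcinoma lines grown with or without muscle progenitor cells. The genes were the receptors EGFR, ERBB2 and ERBB3, the EGFR ligands AREG, EREG, HBEGF, TGFA and BTC, and the neuregulin NRG1. All probe sets whose symbol was one of these 9 genes were taken, which gave 34 of the 54675 probe sets on the array. The whole array named 19763 genes by probe sets with 1 symbol. Each probe set gives 1 signal from a set of short oligonucleotides complementary to part of a transcript.

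RNA was read on 12 arrays of the HG-U133 Plus 2 type, with 3 arrays for each of 4 groups. The lines were 786-O, a renal carcinoma line without a working VHL protein and kept in RPMI1640, and PC3, a prostate carcinoma line kept in F-12K. In the co-culture groups 30000 cancer cells were seeded in a transwell plate and, 6 h later, the top chamber received 10000 primary myoblasts, which came from limbs of C57BL/6-Tg GFP mice aged 5 days. RNA was taken 12 h after that. The other groups were the pure lines, harvested 12 h after plating, for which no transgene or added agent is named. The labels also call the co-culture 1:1, which these cell numbers are not. Co-cultured cancer cells had been plated for longer at harvest, by the 6 h before the myoblasts were added. A response to co-culture therefore cannot be told apart from this difference in time since plating. The promoter that drives the GFP transgene is not given in the labels, and the myoblasts had been grown in medium with serum and bFGF. Each tumour type is represented by 1 established line.

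In this family a ligand on one cell, or shed from it, brings receptors together in pairs, and the paired receptors switch on the RAS-ERK and PI3K-AKT pathways through their kinase domains. EGFR binds AREG, EREG, HBEGF, TGFA and BTC, while ERBB3 and ERBB4 bind neuregulins, and EREG, HBEGF and BTC can also bind ERBB4. ERBB2 has no known ligand and works as a partner, and ERBB3 has a weak kinase and signals through its partners. The ligands are made as membrane-bound precursors and released by metalloproteases such as ADAM17. In clear cell renal carcinoma without VHL, TGFA is known as a gene raised by the hypoxia-inducible factors.

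Line markers were read first. PAX8, PAX2 and CDH6 were above the floor in every 786-O array, while CA9, a renal carcinoma marker, was at 2.42 or less. In PC3 HOXB13 read 8.10 to 8.68 (log2 signal), and the prostate genes KLK3, KLK2 and TMPRSS2 were under the floor, a signal of 16 (log2 of 4). Of 8 muscle markers, MYOD1, MYF5, MYOG, PAX7, DES, CDH15, CHRNA1 and ACTC1, 8 were under it in every group. Their summed linear signal was 37.0 to 39.0 in co-cultured 786-O against 36.6 to 38.9 alone, and 38.1 to 39.0 in co-cultured PC3 against 36.8 to 41.5 alone. The myoblasts were mouse cells and the array is human, so these signals cannot show whether myoblast RNA was present. Median signals per array ran from 5.46 to 5.73. Replicate 2 of co-cultured 786-O stood apart, since its 3′ probe set outshone the 5′ one 7.22-fold for ACTB and 1.84-fold for GAPDH, where the other 11 arrays had 3.08 to 4.24 and 1.07 to 1.29. Where leaving this array out ended or gave a call of a family member, or moved a log2 difference by over 0.1 and over 1.5 times, the result without it is given. Fewer cells of a kind and less RNA per cell cannot be told apart in such bulk samples.

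EREG, AREG and BTC lie beside each other on chromosome 4, in the order EPGN, EREG, AREG, BTC among protein-coding genes in RefSeq (GRCh38.p14), and HBEGF lies on chromosome 5. The 250 bases before the start of each of these 4 genes are shown because the chromosome 4 neighbours were high in different lines and because HBEGF changed most clearly with co-culture. The sequences are from RefSeq, GRCh38.p14, written 5′ to 3′ along the gene. Promoters of 7 of the 9 genes were read from that table.
EREG promoter (chr4:74364895-74365144, plus strand): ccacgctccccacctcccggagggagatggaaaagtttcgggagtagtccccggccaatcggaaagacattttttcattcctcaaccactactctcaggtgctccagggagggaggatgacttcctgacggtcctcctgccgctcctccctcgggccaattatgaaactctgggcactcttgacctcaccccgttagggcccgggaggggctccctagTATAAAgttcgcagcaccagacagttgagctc
AREG promoter (chr4:74444886-74445135, plus strand): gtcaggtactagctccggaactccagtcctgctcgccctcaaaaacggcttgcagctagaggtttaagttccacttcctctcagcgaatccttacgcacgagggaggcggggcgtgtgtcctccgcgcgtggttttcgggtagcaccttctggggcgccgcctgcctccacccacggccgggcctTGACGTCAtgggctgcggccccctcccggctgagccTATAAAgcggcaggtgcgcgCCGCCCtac
BTC promoter (chr4:74794524-74794773, minus strand): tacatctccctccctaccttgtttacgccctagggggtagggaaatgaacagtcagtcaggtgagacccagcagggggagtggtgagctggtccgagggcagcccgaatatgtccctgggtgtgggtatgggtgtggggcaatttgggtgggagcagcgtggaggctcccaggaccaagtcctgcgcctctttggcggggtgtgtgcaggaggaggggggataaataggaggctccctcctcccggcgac
HBEGF promoter (chr5:140346604-140346853, minus strand): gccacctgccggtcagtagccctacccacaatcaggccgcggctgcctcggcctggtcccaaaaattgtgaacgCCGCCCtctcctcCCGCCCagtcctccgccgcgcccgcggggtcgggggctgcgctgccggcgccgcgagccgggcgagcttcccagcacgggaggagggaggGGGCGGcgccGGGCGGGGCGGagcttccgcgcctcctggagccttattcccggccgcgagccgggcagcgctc
Capitals mark matches to 4 motifs, each searched on both strands of the window. The first was the TATA box, searched as TATAAA, which positions the start of transcription in many promoters. It stood 32 to 27 bases before the start in EREG and 29 to 24 bases before it in AREG, and 10.7% of all 35116 promoter windows held it. The second was the cyclic AMP response element, searched as TGACGTCA, and AREG had it at 65 to 58 bases before the start, while 1.6% of all windows held it. The third was the GC box bound by Sp1 and its relatives, searched as GGGCGG, and 42.6% of all windows held at least 1. AREG had 1 and HBEGF had 5, of which 2 overlap by a base. The last was the AP-1 site, searched as TGANTCA, which 6.6% of all windows held and the 4 windows shown did not. No match to any of the 4 motifs lay in the BTC window. A match is a description of letters and does not show that a factor binds there.

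Of the 34 probe sets, 17 passed the filter on dim signals, which asked for a mean log2 signal over the 12 arrays above that of the median probe set, 2.65. They came from 8 of the 9 genes: 4 for EGFR, 3 for TGFA, 2 each for HBEGF, EREG, BTC and NRG1, and 1 each for ERBB2 and ERBB3. The other 17 lay at or near the floor on every array, at 3.80 or less. The brightest probe set of a gene stood for it in the test. BTC and NRG1 passed through 1 line only, and ERBB3 through PC3 only, so their difference between the lines was partly fixed by the filter.

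**Figure D1:**
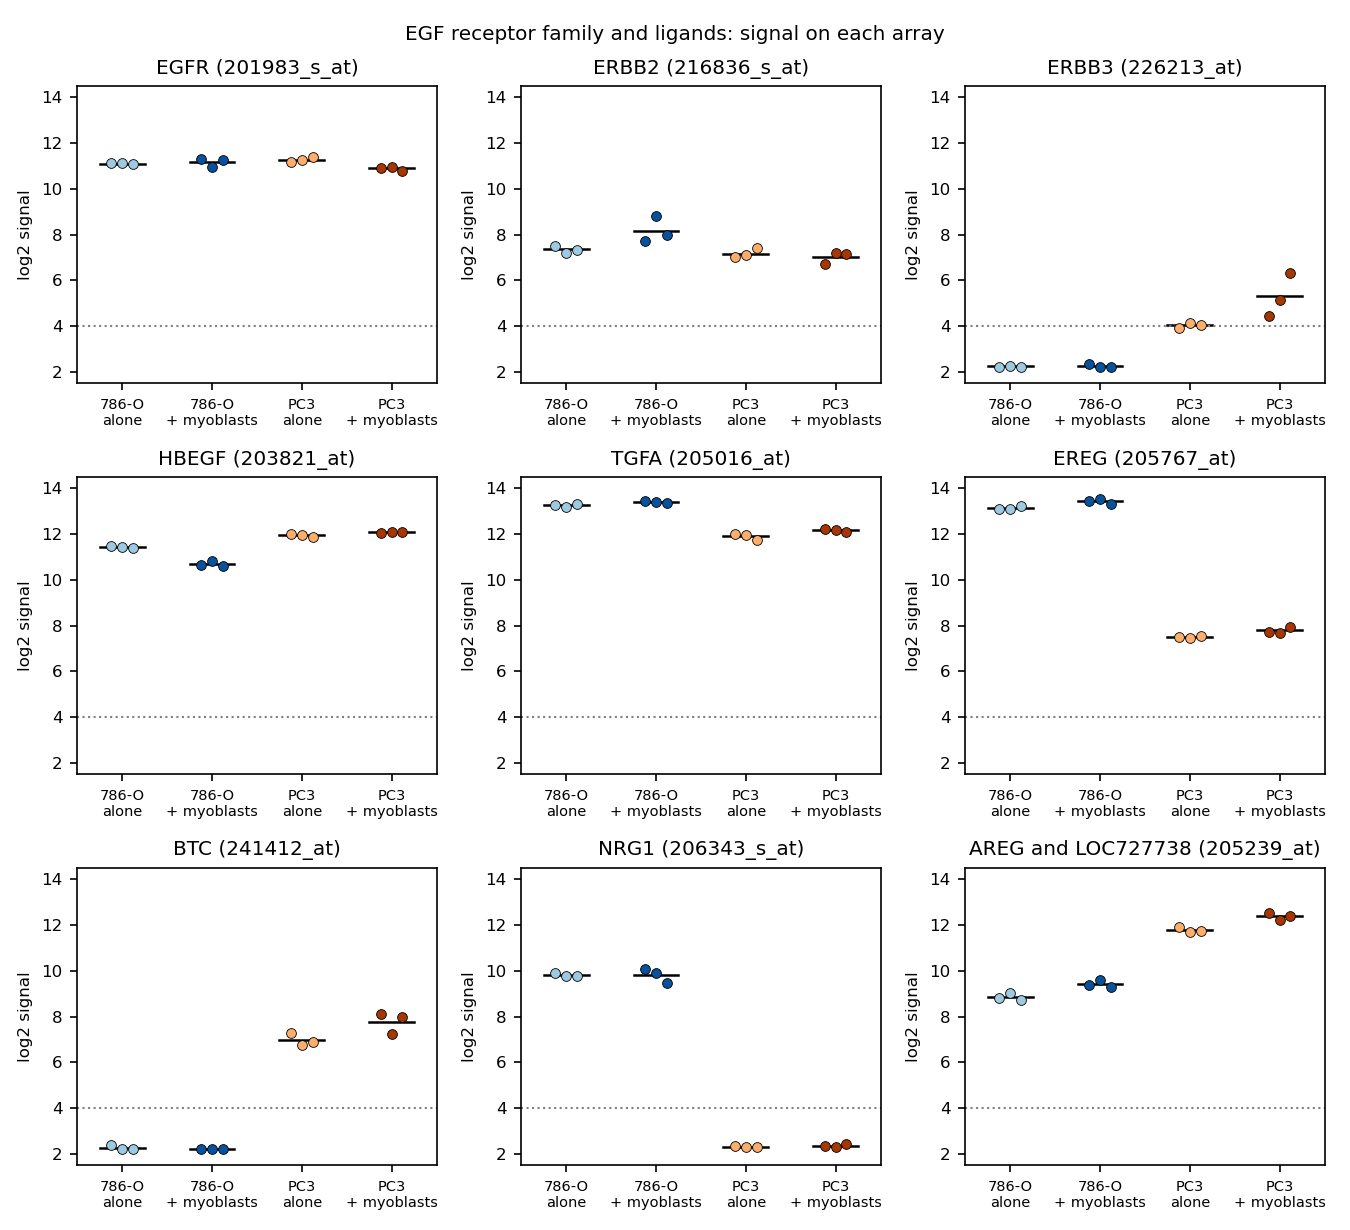
Log2 signal of each gene's brightest probe set, and of the probe set shared by AREG and LOC727738, on each of the 12 arrays. Points are arrays, black bars group means and the dotted line the floor at log2 of 4. HBEGF was lower in co-cultured 786-O, at 10.59 to 10.82, than in 786-O alone, at 11.40 to 11.49, while NRG1 was above the floor only in 786-O and BTC only in PC3.

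With co-culture 2 of the 8 tested genes were called in 786-O, where 12% of all genes were called, and 2 of 8 in PC3, where 5.7% were called. In 786-O HBEGF fell and EREG rose, and in PC3 EGFR fell and TGFA rose. A gene was called at an adjusted p under 0.05 in limma, adjusted over the 12504 genes tested. HBEGF was also the 1 gene of 8 called for a difference between the responses of the lines, where 5.97% of all genes were called. EGFR and ERBB2 did not pass there, at differences of 0.46 and 0.98. BTC, ERBB3 and NRG1 lay under the floor in 1 line, so their responses cannot be compared. The median log2 difference over all genes was 0.02 in 786-O and 0.00 in PC3. Of these 4 calls, only that of HBEGF survived the omission of any single array among the 12.

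HBEGF encodes heparin-binding EGF-like growth factor, an EGFR ligand that is induced by growth factor signalling and shed from the membrane. In 786-O alone its log2 signals were 11.49, 11.44 and 11.40, and in co-culture they were 10.63, 10.82 and 10.59. Every co-cultured array lay below every array grown alone. The fall was 0.76 on the log2 scale (log2 difference -0.76 ± 0.07 (SE, n = 3 per group), 1.7-fold, limma adjusted p = 0.000125), and the adjusted p ran from 1.36e-05 to 0.00121 without single arrays. In PC3 the signals were 12.01, 11.94 and 11.88 alone and 12.03, 12.09 and 12.11 in co-culture. Those groups did not overlap either, but the difference of 0.13 ± 0.07 did not pass (limma adjusted p = 0.333), and its 95% interval reached from -0.01 to 0.28. The responses differed by -0.90 ± 0.10 (786-O minus PC3, limma adjusted p = 0.000384). With only the 6 arrays of 786-O in the fit the fall kept its call (limma adjusted p = 0.0212), and without replicate 2 of the co-culture it was -0.83.

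The second bright probe set of HBEGF, 38037_at, read 11.13, 11.14 and 11.05 in 786-O alone and 10.28, 10.41 and 10.33 in co-culture. Its log2 difference was -0.77 ± 0.07, against 0.13 ± 0.07 in PC3, close to those of the first. Its responses differed by -0.90 ± 0.09 (limma adjusted p = 0.000518 over all probe sets, of which 4.22% were called in that comparison). When each probe set was tested on its own, the fall of 38037_at was called (limma adjusted p = 0.00017 over 22802 probe sets, of which 3.45% were called lower). The authors' deposited table gave HBEGF (203821_at) as 1.69-fold higher in 786-O alone than in co-culture, with an unadjusted p of 0.000281. A further 2 HBEGF probe sets, 222076_at and 244857_at, never exceeded 2.15, and the first of them aligned to the plus strand while the gene is on the minus strand.

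EREG, epiregulin, is an EGFR and ERBB4 ligand. The log2 signals of its bright probe set 205767_at were 13.12, 13.09 and 13.24 in 786-O alone and 13.46, 13.53 and 13.34 in co-culture. The co-cultured arrays were all higher, by 0.29 ± 0.09 (limma adjusted p = 0.0467). In PC3 the signals were 7.50, 7.47 and 7.55 alone and 7.73, 7.69 and 7.94 in co-culture, a difference of 0.28 ± 0.09 that did not pass (limma adjusted p = 0.0872, or 0.0446 without replicate 2 of co-cultured 786-O). The difference between the responses was 0.01 ± 0.12 (limma adjusted p = 0.97). The call in 786-O was lost in 9 of 12 omissions of an array, with 0.162 as the highest adjusted p, and without replicate 2 of the co-culture the value was 0.25 (limma adjusted p = 0.0896).

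A dimmer EREG probe set moved more. Signals of 1569583_at were 6.63, 7.01 and 5.91 in 786-O alone and 8.53, 8.18 and 8.79 in co-culture, so the groups did not overlap. It rose by 1.98 ± 0.29 (limma adjusted p = 0.00346 over all probe sets, of which 5.28% were called higher), and by 2.14 without replicate 2. In PC3 it was under the floor on every array, between 1.86 and 2.63, so no response can be read there. In the same fit of all probe sets 205767_at did not pass (limma adjusted p = 0.0566).

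TGFA, transforming growth factor alpha, is an EGFR ligand known for autocrine loops in renal carcinoma. Its bright probe set 205016_at read 13.27, 13.19 and 13.31 in 786-O alone and 13.47, 13.42 and 13.36 in co-culture. The difference of 0.16 ± 0.07 did not pass (limma adjusted p = 0.122), although the groups did not overlap. In PC3 it read 11.99, 11.95 and 11.76 alone and 12.22, 12.18 and 12.08 in co-culture. There it rose by 0.26 ± 0.07 (limma adjusted p = 0.0387), a call lost in 8 of 12 omissions and with only the PC3 arrays in the fit (limma adjusted p = 0.101).

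The other TGFA probe sets did not give the same sizes or calls, but only 211258_s_at in 786-O went in the other direction. The dimmer 205015_s_at read 6.90, 6.72 and 6.46 in 786-O alone and 7.42, 8.0 and 7.64 in co-culture, a rise of 0.99 ± 0.17 (limma adjusted p = 0.00836 over all probe sets) that was 0.84 without replicate 2 and kept its call without each array. In PC3 the same probe set differed by 0.14 ± 0.17 (limma adjusted p = 0.82), and the test of the difference between lines did not pass (0.86 ± 0.25, limma adjusted p = 0.0805). The third, 211258_s_at, read 10.35, 8.65 and 10.58 in co-cultured 786-O against 10.11, 10.12 and 10.34 alone. Its difference of -0.33 ± 0.39 did not pass (limma adjusted p = 0.619) and was 0.28 without replicate 2, the array with the high 3′ to 5′ ratios. The part of those ratios in the values of replicate 2 was not tested. In PC3 211258_s_at differed by 0.22 ± 0.39 (limma adjusted p = 0.895).

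AREG, amphiregulin, could not be tested under its own symbol. The 1 probe set that named AREG alone, 215564_at, lay between 2.22 and 2.28 on every array and aligned to the minus strand, while the gene is on the plus strand in RefSeq. A bright probe set, 205239_at, named both AREG and LOC727738 and fell outside the rule. It was looked at after its values were seen, and its signal cannot be divided between these 2 names. It read 8.82, 9.03 and 8.71 in 786-O alone and 9.36, 9.58 and 9.28 in co-culture. In PC3 it read 11.90, 11.68 and 11.76 alone and 12.52, 12.23 and 12.41 in co-culture. Co-cultured arrays were higher in each line without overlap, by 0.55 ± 0.11 in 786-O (limma adjusted p = 0.0172) and 0.61 ± 0.11 in PC3 (limma adjusted p = 0.0109). Each call was kept in 10 of 12 omissions, and the highest adjusted p were 0.0717 without replicate 3 of 786-O alone and 0.0606 without replicate 1 of co-cultured PC3. The difference between the responses was -0.06 ± 0.16 (limma adjusted p = 0.861).

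BTC, betacellulin, binds EGFR and ERBB4. In PC3 the signals of 241412_at were 7.27, 6.76 and 6.87 alone and 8.11, 7.22 and 8.0 in co-culture, so that replicate 2 of the co-culture overlapped the cells grown alone. The difference of 0.81 ± 0.23 did not pass (limma adjusted p = 0.0591), with a 95% interval of 0.32 to 1.30. Over omissions it ran from 0.64, without replicate 1 of the co-culture (limma adjusted p = 0.235), to 1.09, without replicate 2 (limma adjusted p = 0.0064). It also passed without replicate 2 of co-cultured 786-O, at 0.81 (limma adjusted p = 0.0429), and in 3 of 12 omissions in all. The other probe set, 207326_at, read 4.5, 5.07 and 4.85 alone and 5.76, 4.98 and 6.63 in co-culture, a difference of 0.98 ± 0.32 (limma adjusted p = 0.143). In 786-O neither probe set exceeded 2.39.

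NRG1, neuregulin 1, binds ERBB3 and ERBB4. In 786-O the signals of 206343_s_at were 9.90, 9.76 and 9.79 alone and 10.09, 9.91 and 9.48 in co-culture, with groups that overlapped. The difference was 0.01 ± 0.16 with a 95% interval of -0.33 to 0.35 (limma adjusted p = 0.98). A second probe set, 206237_s_at, read 7.16, 6.24 and 4.79 alone and 7.24, 7.11 and 6.69 in co-culture. Its difference of 0.95 ± 0.46 did not pass (limma adjusted p = 0.207) and ran from 0.31, without replicate 3 of 786-O alone, to 1.5 over omissions, none of which passed. In PC3 neither exceeded 2.83.

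Among the receptors, EGFR was read by a pair of bright probe sets that had the same directions but were called in different lines. With 201983_s_at the PC3 signals were 11.16, 11.28 and 11.38 alone and 10.93, 10.95 and 10.79 in co-culture, without overlap. The fall was -0.38 ± 0.10 (limma adjusted p = 0.0382), but it lost its call in 8 of 12 omissions, with 0.156 as the highest adjusted p. In 786-O the same probe set read 11.12, 11.11 and 11.09 alone and 11.32, 10.96 and 11.28 in co-culture, a difference of 0.08 ± 0.10 (limma adjusted p = 0.618) that was 0.20 without replicate 2 (limma adjusted p = 0.0986). The responses differed by 0.46 ± 0.14, which did not pass (limma adjusted p = 0.0691) but did without replicate 2 of co-cultured 786-O (0.58, limma adjusted p = 0.00447).

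With 201984_s_at EGFR rose in 786-O, from 9.30, 9.27 and 9.28 alone to 9.43, 9.95 and 9.71, by 0.41 ± 0.11 (limma adjusted p = 0.0467 over all probe sets). That call was lost in 11 of 12 omissions, and the value was 0.29 without replicate 2. In PC3 it read 10.95, 10.91 and 10.99 alone and 10.84, 10.72 and 10.94 in co-culture (-0.12 ± 0.11, limma adjusted p = 0.719). With this probe set the responses differed by 0.53 ± 0.16, which did not pass (limma adjusted p = 0.0926 over all probe sets). Of the 2 dim EGFR probe sets above the filter, 211607_x_at was called lower in co-cultured PC3 (limma adjusted p = 0.0411), where 2% of all probe sets were called lower. Its co-cultured arrays were under the floor, so that the fall was at least 1.09-fold, and the call was lost in 9 of 12 omissions, with 0.165 as the highest adjusted p. The other, 210984_x_at, stayed under the floor on every array, at 3.46 or less.

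ERBB2 in 786-O read 7.49, 7.21 and 7.34 alone and 7.71, 8.82 and 7.96 in co-culture. The co-cultured arrays were higher without overlap, and replicate 2 was the highest. The difference of 0.82 ± 0.25 did not pass (limma adjusted p = 0.0564), and without replicate 2 it was 0.49 (limma adjusted p = 0.102). In PC3 the signals were 7.0, 7.11 and 7.39 alone and 6.69, 7.18 and 7.13 in co-culture, which overlapped (-0.16 ± 0.25, limma adjusted p = 0.842). The responses differed by 0.98 ± 0.36, which did not pass (limma adjusted p = 0.127). Without replicate 2 of co-cultured 786-O they differed by 0.65 (limma adjusted p = 0.108).

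ERBB3 was near the floor in PC3 alone, at 3.92, 4.13 and 4.02, and read 4.43, 5.14 and 6.33 in co-culture. The co-cultured arrays were higher but widely spread, and the difference of 1.27 ± 0.35 did not pass (limma adjusted p = 0.0584, or 0.171 with only the PC3 arrays in the fit). Over omissions it ran from 0.76 to 1.71 and passed in 2 of 12, at an adjusted p of 0.00688 when replicate 1 of co-cultured PC3 was left out and 0.0454 when replicate 2 of co-cultured 786-O was. In 786-O it lay between 2.22 and 2.35. The remaining 4 ERBB3 probe sets did not exceed 3.80.

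**Figure D2:**
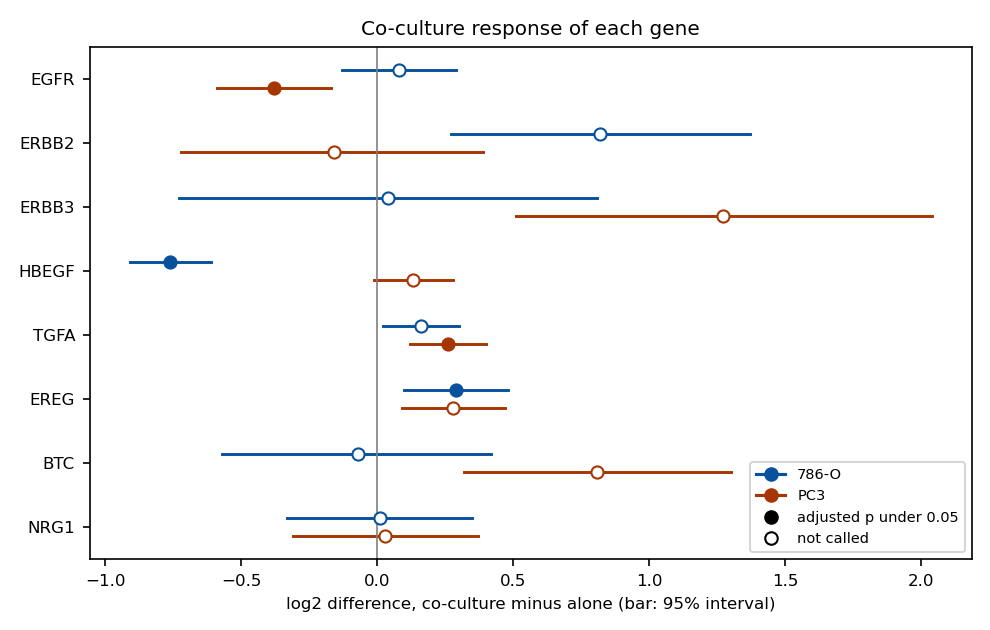
Log2 difference of co-culture minus alone for the brightest probe set of each of the 8 tested genes, with 95% intervals from the fit, 786-O in blue and PC3 in red-brown. Filled points passed the adjusted p of 0.05. The HBEGF interval in 786-O lies wholly below 0, at a mean of -0.76, while in PC3 it reaches from -0.01 to 0.28.

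**Figure D3:**
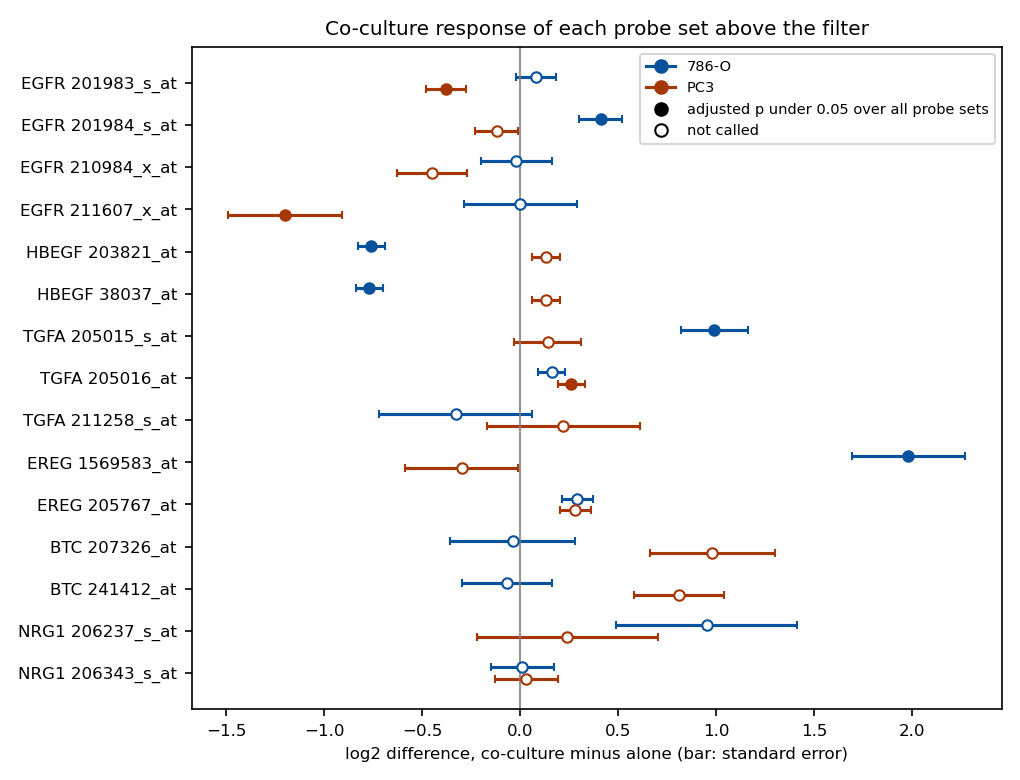
The same difference for each probe set above the filter, in the 6 genes with more than 1 such probe set, with standard errors, 786-O in blue and PC3 in red-brown. Filled points passed the adjusted p of 0.05 over all probe sets. The HBEGF probe sets lie together at -0.76 and -0.77 in 786-O, whereas those of EREG lie at 0.29 and 1.98 and those of TGFA at 0.99, 0.16 and -0.33.

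RNA levels of the ligands differed between the lines. The lines were also kept in different media, and line and medium cannot be told apart here. Of the 8 tested genes, 6 were called between 786-O and PC3 grown alone, where 75% of all genes were called. In co-culture 8 were called, where 76.2% of all genes were, so most genes of either kind differed between the lines. BTC, NRG1 and ERBB3 are in both counts and passed the filter through 1 line only. Both counts of members were therefore partly fixed by the filter. The call of ERBB3 in cells grown alone was lost with signals under 16 set to 16 (-0.05, limma adjusted p = 0.94). Comparisons between lines share the arrays of the response comparisons and are given as levels. NRG1 in 786-O exceeded PC3 at least 56.3-fold without myoblasts and at least 56.8-fold with them, since every PC3 array was under the floor. EREG (205767_at) had a log2 difference of 5.64 ± 0.09 alone and 5.65 ± 0.09 in co-culture, higher in 786-O. TGFA (205016_at) was also higher in 786-O, by 1.35 ± 0.07 alone and 1.25 ± 0.07 in co-culture.

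In the other direction, BTC (241412_at) in PC3 exceeded 786-O at least 7.81-fold without myoblasts and at least 13.7-fold with them. HBEGF was lower in 786-O by a log2 difference of -0.50 ± 0.07 alone and -1.40 ± 0.07 in co-culture, and the arrays of the lines did not overlap in either setting. The probe set shared by AREG and LOC727738 was lower in 786-O, at -2.92 ± 0.11 alone and -2.98 ± 0.11 in co-culture. Of the chromosome 4 neighbours whose promoters are shown, EREG was thus the higher in 786-O, and BTC and the shared AREG probe set were the higher in PC3.

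For the receptors, ERBB3 in PC3 was at least 1.02-fold above 786-O alone, since both lay near or under the floor, and at least 2.46-fold in co-culture. ERBB2 did not pass between the lines grown alone (0.18 ± 0.25, limma adjusted p = 0.532) and was higher in 786-O in co-culture (1.16 ± 0.25, limma adjusted p = 0.00116, or 0.83 without replicate 2 of co-cultured 786-O). For EGFR the bright probe sets did not give 1 direction. With 201983_s_at the difference alone was -0.17 ± 0.10 (limma adjusted p = 0.132) and in co-culture 0.30 ± 0.10, higher in 786-O (limma adjusted p = 0.014). Without replicate 2 of co-cultured 786-O the first passed (limma adjusted p = 0.0305) and the second was 0.41, and the second lost its call in 3 of 12 omissions. With 201984_s_at 786-O was lower in each setting, by -1.67 ± 0.11 and -1.14 ± 0.11. No direction of EGFR between the lines can therefore be given.

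Patterns like those of the 4 called genes were looked for among 12496 other genes, by the root mean square difference of log2 signals over the 12 arrays after each gene was centred on its own mean. For HBEGF the nearest were LOC100133105, ZNF543 and ZNF468, at 0.137, 0.146 and 0.149, against a median of 0.65 over all genes. For TGFA they were CMTM4, ADTRP and EXTL2, at 0.068 to 0.099, and for EREG BHMT2, SRSF12 and HOXB4, at 0.12 to 0.208. For EGFR they were MFSD11, SDHAP2 and IFT22, at 0.075 to 0.094. These genes share arrays and the difference between lines with the named gene.

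The rest of the pathway was described with 6 lists of 90 genes. Of the other family members, 3 of 6 were tested (ERBB4, EGF and NRG2). ERBB4, the second neuregulin receptor, was at least 17.22-fold higher in 786-O than in PC3 alone, with PC3 under the floor, and at least 24.88-fold in co-culture. Its response in 786-O, 0.53 ± 0.19, did not pass (limma adjusted p = 0.0927). NRG2, a neuregulin, was at least 1.41-fold lower in co-cultured PC3, all of whose arrays were under the floor (limma adjusted p = 0.028). The call was lost with signals under 16 set to 16, with the 75th percentile filter and without any 1 of the 3 co-cultured PC3 arrays. EGF, the founding ligand, did not pass in either response (0.01 ± 0.27 in 786-O and 0.77 ± 0.27 in PC3, limma adjusted p = 0.991 and 0.15). The lists held NRG3, NRG4, FOS, FOSB and MUC4 under the filter, and no probe set named EPGN alone.

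Among 9 genes for ligand shedding, 2 rose and 0 fell in 786-O, where 8.08% and 3.9% of all genes were called higher and lower, with a list median of 0.04. These were the inactive rhomboid proteins RHBDF2 and RHBDF1, which carry ADAM17 to the cell surface, at 0.59 ± 0.16 (limma adjusted p = 0.0353) and 0.97 ± 0.28 (limma adjusted p = 0.0458). None of the 9 were called higher with only the 786-O arrays in the fit, with no filter, with quantile normalization or with a replicate block. Leaving out replicate 2 of co-cultured 786-O gave a count of 1, and the count ran from 0 to 3 over omissions. The protease ADAM17 itself differed by 0.06 ± 0.06 in 786-O and 0.03 ± 0.06 in PC3. In PC3 limma called 0 of the 9, where 5.7% of all genes were called, and the list median was 0.00.

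Of 18 receptor inhibitors and turnover genes, limma called 0 in either direction in each line, with medians of -0.02 and 0.02. The shares of all genes called were 12% in 786-O and 5.7% in PC3. The 18 included ERRFI1, a feedback inhibitor of EGFR kinase, at 0.05 ± 0.05 in 786-O and -0.14 ± 0.05 in PC3. Of 26 adaptors and kinases, 5 rose and 0 fell in 786-O, against 8.08% and 3.9% of all genes called higher and lower. Among them were PLCG1, a phospholipase, at 0.43 ± 0.09, the kinase AKT2 at 0.38 ± 0.08 and the transcription factor STAT5B at 0.55 ± 0.15. With only the 786-O arrays in the fit, with the mean of probe sets, and without replicate 2 or replicate 3 of 786-O alone, 0 of the 26 were called higher. In PC3, where 3.19% and 2.51% of all genes were called higher and lower, 0 rose and 1 fell, PIK3R1, a regulatory subunit of PI3K (-0.60 ± 0.13, limma adjusted p = 0.0155). The count of falls there was 0 with only the PC3 arrays in the fit and also when replicate 3 of the co-culture or replicate 2 of PC3 alone was left out. The medians of the list were 0.00 and -0.03. STAT5B and STAT3 had group means of 2.14 to 2.16 in PC3, under the floor, so their responses cannot be read there. Of 9 tested coreceptors and matrix partners of the ligands limma called 0 in each line.

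Genes known to be induced by ERK moved in different directions. Of 19 tested, 3 rose and 4 fell in 786-O, where 8.08% and 3.9% of all genes were called higher and lower. The list median there was 0.01. The transcription factors EGR3 and EGR1, immediate early genes, fell, with differences of -3.30 ± 0.16 (limma adjusted p = 7.63e-07) and -0.73 ± 0.13. SPRY4, a feedback inhibitor of the ERK pathway, had one of -1.42 ± 0.16, while IER3 rose by 0.19 ± 0.04. With only the 786-O arrays in the fit, 0 genes of the list were called higher. Without replicate 2 of the co-culture 6 were called lower. In PC3 1 rose and 2 fell, where 3.19% and 2.51% of all genes were called higher and lower. There 4 were called lower with only the PC3 arrays in the fit or without replicate 2 of co-cultured 786-O. EGR1 fell by 2.16 (SE 0.13, limma adjusted p = 1.42e-06) and IER3 rose by 0.48 ± 0.04, while DUSP5, an ERK phosphatase, had a difference of -0.65 ± 0.07. The PC3 median was -0.01. EGR3 was under the floor in PC3, with group means of 2.35 alone and 2.4 in co-culture, so its response cannot be read there.

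**Figure D4:**
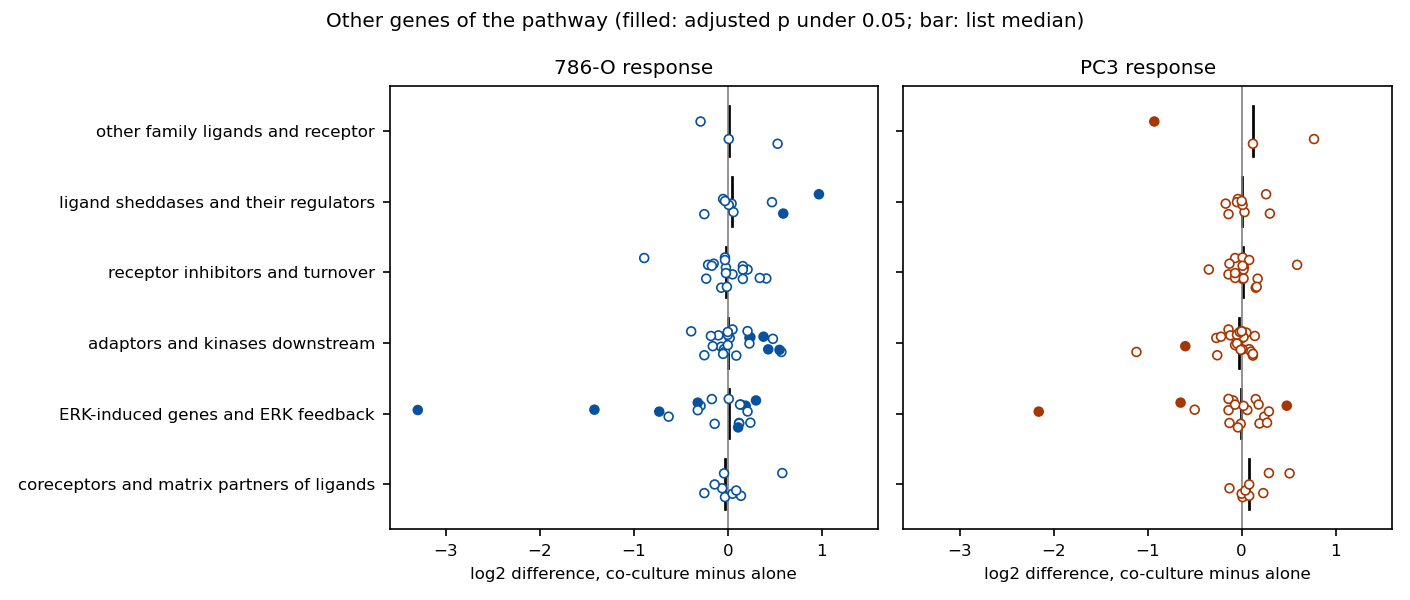
Log2 difference of co-culture minus alone for each tested gene of the 6 pathway lists, in 786-O (left) and PC3 (right). Filled points passed the adjusted p of 0.05, black bars are list medians, and vertical scatter within a list carries no value. Most genes lie near 0, and the farthest are EGR3 at -3.30 in 786-O and EGR1 at -2.16 in PC3.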

How the data were processed

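RNA of 786-O and PC3 cells was measured on 12 arrays, and MAS5 is the only tool that the submitters' processing notes name. The files deposited by the authors hold linear intensities, with 1 signal for every probe set on every array. For comparisons of 2 groups the authors' table also holds a fold change, written as a signed score, and a p-value without adjustment. A background or normalization step is not given in the sources used here. Both deposited tables held equal values for 54675 of 54675 probe sets, within a relative difference of 1e-06. Intensities were taken to log2 without an added constant. Control probe sets (62), those without a symbol (13164) and those with several (1522) were left out. Symbols were brought up to date through RefSeq gene identifiers, 38545 of 39927 of which matched.

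In R 4.3.3, limma 3.58.1 fitted all 4 groups together, with the variance prior following intensity, on the brightest probe set per gene above the filter, with Benjamini-Hochberg adjustment over 12504 genes and two-sided tests. Probe sets other than the brightest were tested in a fit of all 22802 probe sets above the filter. The 4 groups share 1 spread per gene, so errors can be too small where a gene is flat in 1 line. The labels do not say that repeats were separate cultures, so the tests judge differences against the spread of these arrays only, which may be technical, and the number of arrays limits precision. A group under the floor has only a bound, computed against the floor or the probe set's own signal where higher, on each array. Members, lists, tests and the floor were chosen with earlier results of these data known. Named are the probe sets of the members, up to 4 called genes of each list with the smallest p, and the 3 genes most like each called member; a few genes of the lists are not reported here. The fit was tested on simulated data. Figures were drawn with matplotlib 3.10.9. The alternatives were other filters, normalizations, variance models, probe set choices, a replicate block and the omission of each array.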

Additional observations from a re-analysis of the deposited data

Results flagged for a closer look

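The response of HBEGF to co-culture differed between the lines by a log2 difference of -0.90 (786-O minus PC3) with 203821_at and by -0.90 with 38037_at, each past the test of the difference itself. These probe sets read the same gene and are not independent.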

How the results depend on the processing

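The fall of HBEGF in 786-O kept its direction and call under each of the 12 omissions of an array and each of the 11 other settings, from -0.83 to -0.72. The number of members called was less stable. In 786-O it was 2, and 1 with no filter, with arrays centred on the median, with only the groups compared and with a replicate block, 4 with every probe set tested, and 1 to 3 over the omissions. In PC3 it was 2, and 0 with no filter or no intensity trend, 1 with only the groups compared, the mean of probe sets, no _x_at and _s_at probe sets or a replicate block, and 0 to 5 over the omissions, with 5 without replicate 2 of co-cultured 786-O. For the difference of responses it was 1, and 3 with the mean of probe sets, 2 with every probe set tested, and 1 to 2 over the omissions. Between the lines alone it was 6, and 3 with a filter at the 75th percentile. In co-culture it was 8, and 4 with that filter and 5 without _x_at and _s_at probe sets. Over omissions these were 6 to 7 and 7 to 8. Over all genes, 1498 were called in 786-O (536 to 2522 over omissions, 175 with only the groups compared), 713 in PC3 (434 to 1314, and 419 with the 75th percentile filter) and 746 for the difference (395 to 1314, and 478 with that filter). Between the lines alone and in co-culture that filter moved 9373 to 6158 and 9524 to 6224.

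The replicate numbers did not pair the samples: deviations of same-numbered arrays correlated at 0.01, -0.05 and -0.06 in 786-O and 0.11, 0.11 and -0.13 in PC3. The block moved the counts of members called as above. Values that changed sign were not called, apart from EGFR between the lines in co-culture, which was -0.22 with the mean of probe sets. The others were NRG1 in 786-O (-0.02) and the EREG difference of responses (-0.02) with arrays centred, the NRG1 difference with signal plus 16 (0.00), ERBB3 in 786-O (0.00) and the NRG1 difference (0.01) with signals set to 16, and, with the mean of probe sets, EREG in PC3 (-0.01) and the differences of TGFA (0.07) and NRG1 (0.34). Over omissions ERBB3 in 786-O ran from -0.01 to 0.06, NRG1 in 786-O from -0.12 to 0.18, the EREG difference from -0.04 to 0.09 and the NRG1 difference from -0.15 to 0.15. Among dimmer probe sets in 786-O, EGFR 210984_x_at ran from -0.15 to 0.16 over omissions, EGFR 211607_x_at from -0.15 to 0.13 and TGFA 211258_s_at from -0.69 to 0.28, and the difference of responses of the last from -0.91 to 0.06. The cause was not tested. Signals under the floor of 16 give only bounds.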
